A study of Mus musculus with 2 samples.

Results

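Enhancer-annotated fragments are pieces of DNA, cut out of nuclei by a transposase, that overlap an annotated enhancer. They were counted per cell barcode in single-cell ATAC-seq libraries, an assay in which fragments are recovered mainly from open chromatin. The nuclei came from posterior cortex of 2 female mice of genotype Gad2-Cre+/-; Sun1-GFP+/-, kept in the home cage and not treated, and each mouse gave 1 library. In this genotype, Cre under the control of Gad2, a gene for an enzyme of GABA synthesis, switches on a GFP-tagged SUN1 protein of the nuclear envelope, and nuclei were sorted on that GFP. The age of the mice is not given in the labels. Both mice belong to 1 condition, so there was no comparison between conditions and no test; each SD is between the 2 mice. Barcodes entered when they held 1000 to 100000 unique fragments, of which 10% to 60% lay in promoters. This left 9744 of 541150 listed barcodes in mouse 1 and 11403 of 548812 in mouse 2. The deposited counts name no gene and no site, so the label of inhibitory neurons could not be checked against marker genes, and coordinates and sequences of the enhancers were not analysed here. Barcodes that hold several nuclei or a nucleus of another kind were not removed here. The paper removed both kinds before its own analysis and reports that barcodes of several nuclei were frequent.

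Enhancers are stretches of DNA, often far from a gene, that bind transcription factors and raise the transcription of a target gene. Promoters lie at the start of the gene itself. Active enhancers and promoters are both depleted of nucleosomes, so that the transposase and the older probe of open chromatin, the nuclease DNase I, reach them. Promoters of widely used genes are open in most cell types, and enhancers differ more from one cell type to the next, which is why enhancer accessibility is used to tell neuron subtypes apart. A count over all annotated enhancers, as given here, sums sites that are open in some nuclei and closed in others and does not show which of them were open.

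The passing barcodes held 44148095 enhancer fragments in mouse 1 and 44781785 in mouse 2. A barcode held a median of 4146 and 3717 enhancer fragments, from a lowest of 257 and 250 to a highest of 21589 and 20528. In mouse 1, enhancers thus took 28.5% of all unique fragments of these barcodes, with an exact binomial 95% interval from 28.53 to 28.54. The value for mouse 2 was 28.8%, with an interval from 28.75 to 28.77. These intervals cover counting error only, and here they are much narrower than the gap between the mice. The median enhancer share over barcodes was 28.5% in mouse 1 and 28.7% in mouse 2. Their mean was 28.6% ± 0.148 (SD, n = 2).

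Enhancers ranked second among the annotated classes. Regions sensitive to DNase I held the largest median share, 47.5% in mouse 1 and 47.3% in mouse 2. Enhancers came next, ahead of the neighbourhood of transcription start sites, at 24.4% and 24.0%, and of promoters, at 19.9% and 19.4%. This order was the same in both mice. The 4 classes overlap, and a fragment in at least 1 of them is called on-target. On-target fragments made up a median of 62.8% and 62.7%, and enhancer fragments were 45.5% of the on-target fragments in mouse 1 and 46.0% in mouse 2. The parts of the genome covered by each class were not analysed here, so these shares do not give an enrichment over the genome.

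The overlap of the classes could be read directly from barcodes with exactly 1 unique fragment, because each such fragment shows all the classes it belongs to. There were 178646 of them in mouse 1 and 179050 in mouse 2. They are not among the passing barcodes. Their enhancer share was 28.3% in mouse 1 and 28.5% in mouse 2, close to the shares in the passing barcodes. On-target was marked exactly when at least 1 of the 4 classes was, with 0 exceptions in each mouse.

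Enhancer and promoter fragments were nearly separate sets. Of 50498 enhancer fragments in mouse 1 and 51037 in mouse 2, 1 in each mouse also overlapped a promoter. Whether the annotation itself keeps the 2 classes apart was not tested, because their coordinates were not analysed here. Only 6.68% and 6.38% of enhancer fragments lay near a transcription start site, in contrast to 92.5% and 92.2% of promoter fragments. In the passing barcodes the overlap of both classes cannot be seen, and whether single fragments represent them was not tested.

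Most enhancer fragments were also in a DNase-sensitive region. This held for 68.7% of single enhancer fragments in mouse 1, with an exact binomial 95% interval from 68.3 to 69.1. It held for 68.6% in mouse 2, with an interval from 68.2 to 69.0. Among fragments outside enhancers it held for 39.0% and 38.5%. Promoter fragments were DNase-sensitive more often than enhancer fragments, at 81.5% in each mouse. A further 29.2% and 29.4% of enhancer fragments belonged to no other annotated class. In the passing barcodes the classes of single fragments are not visible, but the totals set a lower bound. At least 46.2% of their enhancer fragments in mouse 1 and 46.4% in mouse 2 had to be DNase-sensitive as well, since enhancer plus DNase-sensitive fragments outnumbered the on-target fragments in every one of the 9744 and 11403 barcodes.

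**Figure D1:**
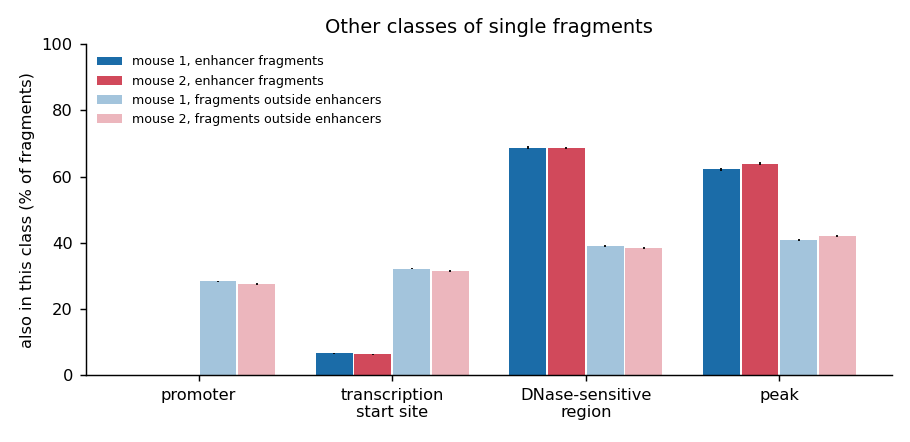
Share of single fragments (percent, vertical axis) that also lay in a promoter, near a transcription start site, in a DNase-sensitive region or in a called peak, for enhancer fragments (full colour) and fragments outside enhancers (pale) of each mouse; error bars are exact binomial 95% intervals. Enhancer fragments hardly overlapped promoters and were DNase-sensitive in 68.7% (mouse 1) and 68.6% (mouse 2) of cases.

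Called peaks are regions in which Cell Ranger found many cut sites in the library itself, so that they are not independent of these fragments. Of single enhancer fragments, 62.2% in mouse 1 and 63.9% in mouse 2 lay in a peak, whereas 94.3% and 94.7% of promoter fragments did. Enhancer fragments that were also DNase-sensitive lay in a peak in 71.6% and 73.1% of cases, and those in no other class in 41.5% and 44.2%. Enhancer fragments were thus spread over called and uncalled sites, and promoter fragments were nearly all at called ones. Inside peaks, promoters held somewhat more fragments than enhancers, at 40.9% against 37.4% in mouse 1 and 38.7% against 37.8% in mouse 2. Outside peaks, 20.2% and 19.9% of fragments were in enhancers and 2.19% and 2.03% in promoters.

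The enhancer share varied little from barcode to barcode. In mouse 1 it ran from 20.0% to 37.9%, with 26.4% at the 5th percentile and 31.6% at the 95th. In mouse 2 it ran from 20.5% to 38.5%, with 26.6% and 32.1% at these percentiles. The SD between barcodes was 1.64 percentage points in mouse 1 and 1.69 in mouse 2. Random sampling of fragments alone would give an SD of 0.500 and 0.506. Removing that binomial part from the variance left a spread of 1.56 and 1.62 points, on average 1.59 ± 0.0372 (SD, n = 2).

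The promoter share spread far more widely over the same barcodes. As a percentage of the median share, the spread beyond counting error was 5.49% for enhancers in mouse 1 and 5.63% in mouse 2, and 24.1% and 25.3% for promoters. DNase-sensitive regions gave 11.3% and 11.8%, transcription start sites 18.2% and 19.1%, and peaks 11.6% and 11.3%. Enhancers had the smallest relative spread of these 5 measures in both mice. A small group of barcodes with a promoter share of 29% or more, lay apart from the rest and held 5.53% of barcodes in mouse 1 and 5.76% in mouse 2. The bound of 29% was set in earlier work on the same counts. Without that group the relative spread was 4.77% and 4.94% for enhancers and 13.6% and 14.3% for promoters, so enhancers still had the smaller value.

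**Figure D2:**
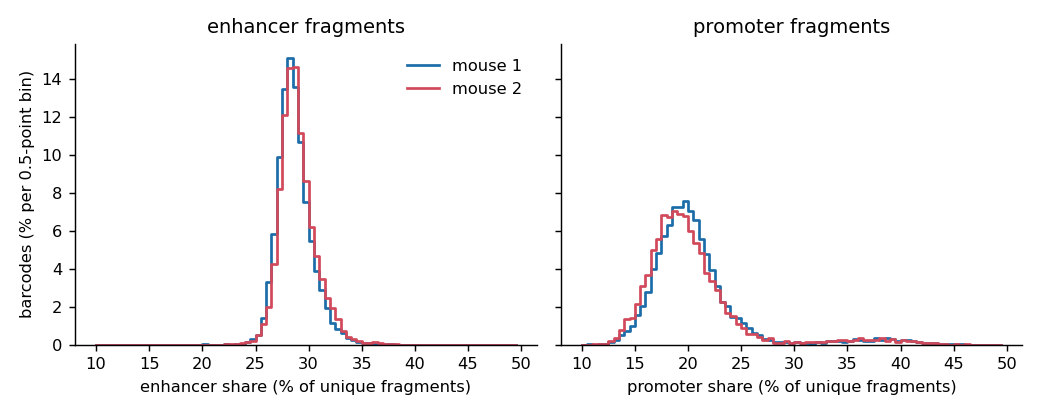
Distribution over barcodes of the enhancer share (left) and the promoter share (right), each as a percentage of a barcode's unique fragments, with the percentage of barcodes per bin on the vertical axis and 1 line per mouse. The enhancer share lies in a narrow range with medians of 28.5% and 28.7%, and the promoter share is broader with a second, small group above 29%.

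Enhancer fragments outnumbered promoter fragments in nearly all barcodes. The median ratio of enhancer to promoter fragments was 1.44 in mouse 1 and 1.49 in mouse 2. Their mean was 1.46 ± 0.0316 (SD, n = 2). It ran from 0.616 to 2.38 in mouse 1 and from 0.610 to 2.47 in mouse 2, with 1.02 at the 5th percentile of each mouse and 1.76 and 1.82 at the 95th. Barcodes in which promoters outnumbered enhancers made up 4.74% in mouse 1 and 4.75% in mouse 2. These were 462 and 542 barcodes, of which 457 and 536 had a promoter share of 29% or more. This overlap is largely built in, because the enhancer share varied little around medians of 28.5% and 28.7%. With fragments near transcription start sites in place of promoter fragments the mean of the medians was 1.19.

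Barcodes were then divided into 4 depth bins by their unique fragments. In mouse 1 the bins of 1000 to under 5000, 5000 to under 10000, 10000 to under 20000, and 20000 and more held 1250, 1551, 4278 and 2665 barcodes. In mouse 2 they held 1388, 2242, 5786 and 1987. Median enhancer shares in this order were 29.1%, 28.9%, 28.3% and 28.4% in mouse 1. They were 29.4%, 29.2%, 28.6% and 28.6% in mouse 2. As shares of unique fragments they were thus higher below 10000 fragments than above, and flat from 10000 fragments on. The highest bin differed from the lowest by -0.705 percentage points in mouse 1 and -0.799 in mouse 2, on average by -0.752 ± 0.0670 (SD, n = 2). This is larger than the spread between the mice and small beside the spread between barcodes, since the middle 50% of barcodes in the lowest bin ran from 27.8% to 30.6% in mouse 1 and from 27.9% to 31.0% in mouse 2.

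The direction depended on the denominator. Enhancer fragments were also divided by the fragments in peaks. This is a ratio and not a share, since many enhancer fragments lay outside peaks. In enhancer fragments per 100 peak fragments, the median of the highest bin differed from that of the lowest by 1.81 in mouse 1 and 3.27 in mouse 2, on average by 2.54. The denominator, the share in peaks, was itself lower in deep barcodes, with medians of 48.8% and 51.3% in the lowest bin and 46.6% and 47.5% in the highest.

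The lower enhancer share of unique fragments in deep barcodes went with the group of high promoter share, which was concentrated in shallow barcodes. It made up 24.7% of the lowest bin in mouse 1 and 28.1% in mouse 2, against 0.113% and 0.101% of the highest bin. Duplicates in the lowest bin made up 17.1% and 17.2% in this group, against 10.7% in the others of each mouse. The group is defined by its promoter share, which itself goes with the enhancer share. The part of this group and of its duplicates in the depth difference was not tested. Without the group the median enhancer shares were 28.5%, 28.6%, 28.3% and 28.4% from the lowest to the highest bin in mouse 1. In mouse 2 they were 28.6%, 28.9%, 28.6% and 28.6%. The highest bin then differed from the lowest by -0.0440 points in mouse 1 and 0.00465 in mouse 2, on average by -0.020, so that the medians of the mice shared no direction. Other measures of the same barcodes were slightly lower at depth in both mice. The share of summed enhancer fragments was 28.58% in the lowest bin and 28.44% in the highest in mouse 1, and 28.80% and 28.59% in mouse 2. The median over fragments outside promoters differed by -0.338 and -0.646 points. In this remainder the second bin, 5000 to under 10000 fragments, had the highest median in both mice.

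The enhancer to promoter ratio was larger in deep barcodes. Its median was 1.34, 1.33, 1.45 and 1.48 from the lowest to the highest bin in mouse 1, and 1.36, 1.37, 1.51 and 1.56 in mouse 2. The step from the lowest to the highest bin was 0.138 in mouse 1 and 0.206 in mouse 2, on average 0.172 ± 0.0477 (SD, n = 2). With fragments summed within each bin in place of medians it was 0.331 and 0.413, on average 0.372. The enhancer share and the promoter share were both lower in the highest bin than in the lowest, the promoter share by more. Median promoter shares were 21.3% in the lowest bin of each mouse and 19.3% and 18.3% in the highest. Without the group of high promoter share the step was 0.0532 and 0.105, on average 0.0791, and the ratio was lowest in the second bin, at 1.37 in mouse 1 and 1.40 in mouse 2. Counts behind the ratio were smallest in the lowest bin, with medians of 765.5 and 805.5 enhancer fragments and 590.5 and 633.5 promoter fragments per barcode.

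**Figure D3:**
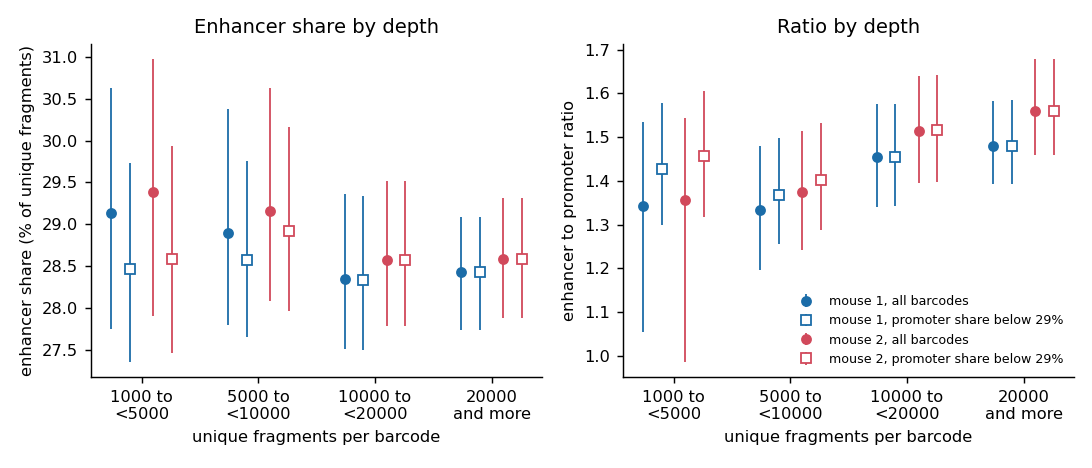
Median enhancer share (left, percent of unique fragments) and median enhancer to promoter ratio (right) in 4 bins of unique fragments per barcode, for all barcodes (filled circles) and for those with a promoter share below 29% (open squares); vertical lines span the 25th to the 75th percentile of barcodes, and the vertical axes do not start at 0. In the left panel the open squares of the lowest bin, at 28.5% and 28.6%, lie close to those of the highest bin.

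The enhancer share was most uniform in the deepest barcodes. The spread of the enhancer share left after removal of counting error was 1.86 points in mouse 1 and 1.96 in mouse 2 in the lowest bin. In the second bin it was 1.98 and 1.96, in the third 1.46 and 1.42, and in the highest 1.08 and 1.14. In barcodes with a promoter share below 29% it was 1.40, 1.53, 1.43 and 1.08 from the lowest to the highest bin in mouse 1, and 1.53, 1.58, 1.40 and 1.14 in mouse 2. The spread thus did not narrow steadily with depth. Barcodes that hold several nuclei were not removed, and their part in the narrower spread of the highest bin was not tested.

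Barcodes with a larger promoter share also had a larger enhancer share, up to a point. Pearson's r between both shares was 0.582 over the 9744 barcodes of mouse 1 and 0.558 over the 11403 of mouse 2. These shares have the same denominator, and barcodes of a mouse come from 1 library. Within the depth bins r ran from 0.522 to 0.625 in mouse 1 and from 0.529 to 0.632 in mouse 2. In barcodes with a promoter share below 29% it was weaker at low depth. There r was 0.390 and 0.356 in the lowest bin, 0.422 in the second of each mouse, and 0.501 and 0.510 in the third. The enhancer share also went with the DNase-sensitive share (r = 0.785 and 0.775) and with the share in peaks (0.606 and 0.613), classes that contain a large part of the enhancer fragments. In barcodes with a promoter share of 29% or more, r was 0.0945 and -0.00845 for the DNase-sensitive share. For the share in peaks it was -0.393 and -0.503 there. With the logarithm of unique fragments r was -0.167 and -0.189.

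The relation turned at high promoter shares. Bands of the promoter share, set after the data were seen, were 4 percentage points wide from 10% to 42%, with 1 band above. In mouse 1 the median enhancer share was 25.96% in the band from 10% to 14%, 27.6% from 14% to 18%, 28.5% from 18% to 22%, 29.3% from 22% to 26% and 29.9% from 26% to 30%. It was highest, at 32.5%, in the band from 30% to 34%, and then 32.3%, 31.0% and 29.8% in the last 3 bands. In mouse 2 the medians were 26.5%, 28.0%, 28.8%, 29.6%, 30.5%, 33.3%, 32.4%, 30.9% and 29.8% in the same order. Both mice thus had their maximum in the same band, with 102 and 141 barcodes, and a lower share on either side. Mitochondrial read pairs made up 2.63% of read pairs in that band in mouse 1 and 0.306% in mouse 2, and their part in the maximum was not tested. Depth also moved with the bands, from a median of 18124 and 18227 unique fragments in the lowest to 3856 and 3334 in the highest. Duplicates made up 11.0% in the lowest band of each mouse, 16.9% and 16.7% in the band of the maximum and 18.7% and 17.8% in the next. The part of depth and duplicates was not tested. Within the group with a promoter share of 29% or more, r was negative, at -0.353 over 539 barcodes and -0.455 over 657.

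Since promoter fragments take a growing part of the total, the enhancer share was also taken over the fragments outside promoters. It was 29.97% in the lowest band of mouse 1 and 30.7% in that of mouse 2, 48.4% and 49.4% in the band from 30% to 34%, and 52.9% and 52.5% in the highest. The lower enhancer shares at the top of the range therefore did not appear on this scale, on which each band was above the one before it in both mice. The promoter share is part of this denominator, so a flat enhancer share of all fragments would also rise on it. The enhancer to promoter ratio was 1.93 and 1.97 in the lowest band, 1.01 and 1.02 from 30% to 34%, and 0.697 and 0.694 in the highest.

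**Figure D4:**
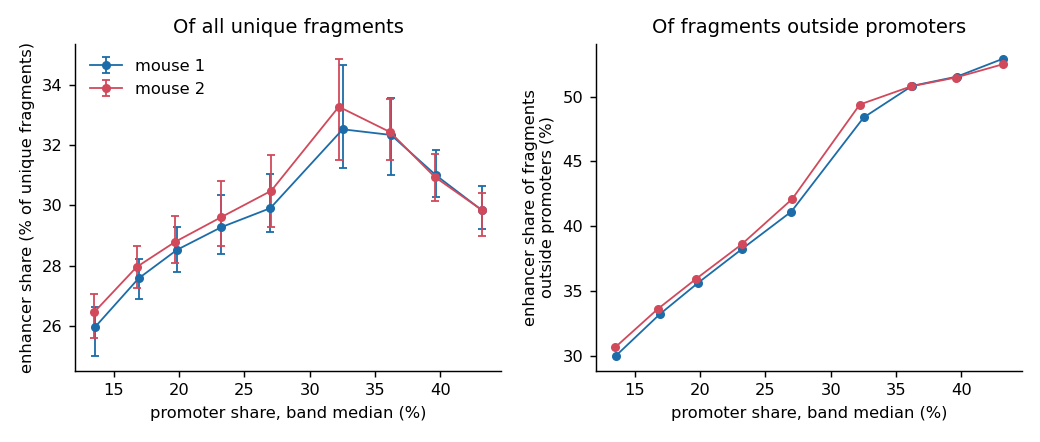
Median enhancer share by band of promoter share, placed at the median promoter share of the band, as a percentage of all unique fragments (left; bars span the 25th to the 75th percentile of barcodes) and of the fragments outside promoters (right), with 1 line per mouse and vertical axes that do not start at 0. The left curve is highest in the band from 30% to 34%, at 32.5% and 33.3%, and the right curve goes on to 52.9% and 52.5%.

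Within the same depth bin, barcodes of high promoter share had a larger median enhancer share than the others. Between 1000 and 5000 fragments their median enhancer share was 31.2% in mouse 1 and 31.3% in mouse 2, against 28.5% and 28.6%. In the second bin it was 32.1% and 32.5%, against 28.6% and 28.9%. Depth was not equal within a bin. In the lowest, median enhancer fragments per barcode were 1083 and 1095 in the group of high promoter share and 650 and 655 in the others. In the second bin the order was opposite, with 2082 and 2048 against 2291.5 and 2373. Duplicates moved with the difference in share. In the lowest bin they made up 17.1% and 17.2% of duplicates plus unique fragments in that group, against 10.7% in the others of each mouse. In the second bin they made up 18.4% and 17.7%, against 11.76% and 12.02% in the others. The mitochondrial part of read pairs was 1.46% and 0.708% in this group of the second bin and 0.286% and 0.287% in the others. In the lowest bin the gap was smaller, with 0.560% and 0.314% in this group and 0.257% and 0.249% in the others. The part of duplicates and mitochondrial reads in the difference was not tested.

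The ends of the distribution differed in other measures, given here as a range of barcodes and not as a cell type. The highest 1% of barcodes by enhancer share, 98 in mouse 1 and 115 in mouse 2, had medians of 34.4% and 34.7%. Of these barcodes, 84.7% and 87.8% had a promoter share of 29% or more, against 3.30% and 3.75% between the 5th and the 95th percentile, and their median depth was 6058 and 5953 unique fragments. Mitochondrial read pairs made up 2.69% and 1.20% there, against 0.248% and 0.238% in that middle range, and duplicates 17.4% and 16.8%, against 12.1% and 12.2%. Their part in the high shares was not tested. The lowest 1% had medians of 24.8% and 24.9%, a depth of 13300 and 12110 fragments and 0 barcodes of high promoter share. Their shares in peaks, 36.3% and 37.6%, were below the 47.3% and 49.1% of the middle range.

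The libraries had 165 passing barcodes in common. Their median enhancer share was 28.5% in mouse 1 and 28.7% in mouse 2, as in the whole libraries. Barcodes that Cell Ranger did not call and that held 20 to 99 fragments served as the background of free fragments. Enhancers took 28.1% of the fragments of these 28981 barcodes in mouse 1 and 26.7% of those of 20198 in mouse 2. Both values were below the summed share of the passing barcodes of the same mouse, at 28.5% and 28.8%. The median over single background barcodes was 27.8% and 26.1%, against 28.5% and 28.7% over passing barcodes. In mouse 2 this background median lay below the 5th percentile of the passing barcodes, at 26.6%, and in mouse 1 above it, at 26.4%. Background barcodes held a median of only 26 and 25 fragments, so their single shares are coarse.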

How the data were processed

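Sorted nuclei of 2 mice were profiled with 1 library each. The authors mapped reads to mm10 with Cell Ranger at default settings (the submitters' processing notes name Cell Ranger ATAC 1.1.0) and deposited, per barcode, counts of read pairs, of unique fragments after removal of duplicates, and of fragments in each region class. The counts were not normalized or pooled. The version of the enhancer annotation is not given in the sources used here. Libraries held 211165886 and 212046147 read pairs.

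Enhancer fragments were divided by unique fragments or by promoter fragments per barcode, for barcodes with 1000 to 100000 unique fragments and 10% to 60% in promoters. The entry without a barcode was left out. Spread beyond counting error is the square root of a difference, the variance between barcodes less the mean binomial variance. It was tested on simulated data. Intervals are exact binomial (Clopper-Pearson). Members, bins and bounds were chosen with earlier results of these data known. The bounds on unique fragments and on the promoter fraction have the values of the paper's own barcode filter. By rule no gene is reported as a result, since the counts are per barcode. Python 3.11.15, pandas 2.3.3, NumPy 2.4.6, SciPy 1.17.1 and matplotlib 3.10.9 were used.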

Additional observations from a re-analysis of the deposited data

Results flagged for a closer look

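Enhancer fragments were also present in barcodes outside the described set. In barcodes that Cell Ranger called as cells but that held fewer than 1000 fragments, enhancers took 28.7% of fragments in mouse 1 (1477 barcodes) and 28.7% in mouse 2 (2051 barcodes), within the range of the deeper barcodes. In uncalled barcodes with 20 to 99 fragments the share was 28.1% and 26.7%. Barcodes with at least 1000 fragments and a promoter share under 10%, which the bounds leave out, had much lower enhancer shares of 19.1% (7 barcodes of mouse 1, exact binomial 95% interval 18.8 to 19.4) and 18.4% (12 barcodes of mouse 2, 18.2 to 18.6). These are shares of summed fragments, and the intervals cover counting error only. Single barcodes of this kind ran from 14.1% to 22.3% in mouse 1 and from 11.6% to 22.2% in mouse 2, with medians of 17.1% and 17.3%. Their shares in peaks were 18.5% and 17.1%, and 2 and 4 of them were called cells.

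Fragments in blacklisted regions, parts of the genome that gather reads in most sequencing assays, were nearly all counted as enhancer fragments. Among single-fragment barcodes, 95.1% of 203 such fragments in mouse 1 (exact binomial 95% interval 91.1 to 97.6) and 95.9% of 195 in mouse 2 (92.1 to 98.2) lay in annotated enhancers. The overlap was not particular to enhancers. Of the same fragments, 83.7% and 87.7% lay near a transcription start site and 82.3% and 81.5% in a DNase-sensitive region. In called peaks it was 99.01% and 97.95%, and in promoters only 2.96% and 1.54%. In the barcodes that met the bounds, blacklisted fragments equalled at most 0.406% and 0.417% of enhancer fragments.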

How the results depend on the processing

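Apart from leaving out a mouse, 36 alternative values for 7 results were computed, of which 22 moved by less than the SD between the mice, 13 moved further and 1 reversed. One of them, leaving out blacklisted fragments, was chosen after seeing the data and gave a median enhancer share of 28.5%. The depth difference in enhancer share was -0.752 percentage points. With peak fragments as the denominator, which do not contain all enhancer fragments, its sign was reversed, at 2.54 enhancer fragments per 100 peak fragments. With a promoter fraction below 0.29 the difference in share was -0.020, with summed fragments -1.06, and between the deepest and the shallowest 10% of barcodes -0.508, from -0.328 in mouse 1 and -0.688 in mouse 2. The depth difference of the ratio was 0.372 with summed fragments and 0.0791 below 0.29. The ratio itself was 1.19 with transcription start sites. Spread beyond counting error was 1.52 points from 5000 fragments on, 1.38 below 0.29 and 1.55 within depth bins. The correlation of enhancer and promoter shares was 0.548 by Spearman's method, 0.548 from 10000 fragments on, 0.495 below 0.29 and 0.919 for enhancer fragments over those outside promoters, where the promoter share is part of the denominator and a positive value is built in. The cause of the other moves was not tested.

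Single mice gave 28.5% to 28.7% for the share, 1.44 to 1.49 for the ratio, -0.799 to -0.705 and 0.138 to 0.206 for their depth differences, 1.56 to 1.62 for the spread, 0.558 to 0.582 for the correlation and 26.7% to 28.1% for the background. With 2 mice such values always lie within their SD of the mean and say nothing about stability. No paired analysis was possible because the series has a single group.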

Other observations

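Barcodes next to the bounds are given for orientation. Within 100 fragments below the lower bound of 1000, the median enhancer share was 28.4% in mouse 1 (80 barcodes) and 28.5% in mouse 2 (77 barcodes). Within 100 fragments above it, the median was 28.54% (69 barcodes) and 28.98% (71 barcodes). At the promoter bound, barcodes with a promoter share from 10% to under 12% had a median enhancer share of 23.4% in mouse 1 (7 barcodes) and 22.8% in mouse 2 (6 barcodes). Below 10% the medians were 17.1% (7 barcodes) and 17.3% (12 barcodes).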
